A study of Mus musculus with 6 samples.

Results

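The Rab family is the group of small GTPases that give membranes of the secretory and endocytic pathways their identity. A Rab bound to GTP recruits effectors such as motors and tethers, a guanine nucleotide exchange factor (GEF) loads it, and a GTPase-activating protein (GAP) turns it off. In the pancreas, Rabs of the Rab3, Rab26 and Rab27 types sit on zymogen and hormone granules and act in their maturation, docking and release, while the other members serve transport through the endoplasmic reticulum (ER), Golgi, endosomes and lysosomes. Members were taken by symbol, as Rab followed by 1 or 2 digits and at most 1 letter and 1 further digit. This gave 52 of the 14681 genes in the authors' deposited table, of which 6 were granule Rabs and 46 were others; 1 further family member was not analysed here. The rule uses symbols alone and no measured value.

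Dorsal pancreas was taken from 3 knockout and 3 control mouse embryos of strain C57BL/6 at embryonic day 18.5, shortly before birth, and profiled by RNA sequencing of total RNA depleted of ribosomal RNA. The extraction protocol names Dpy30, a core subunit of the COMPASS complexes that methylate histone H3 lysine 4, as the gene deleted in the knockout, whereas the deposited table is named after Pdx1. Neither the Cre driver and cells of deletion nor the alleles carried by the controls are given in the labels. The table holds 1 test result per gene and no value for any single library, so replicate spread enters below only through standard errors and p-values. These combine the spread between these 3 and 3 samples with counting error. The table does not state the numerator of its fold changes. "Lower" here means a negative deposited fold change, read as lower in the knockout on the usual convention, and every direction would turn if the table ran the other way. In bulk tissue, fewer cells of a type and less RNA per cell cannot be told apart. Dpy30, with a mean count of only 29.4, was at 0.50 ± 1.66 (SE) on the reconstructed log2 scale, which does not settle the direction.

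Defining genes of the labelled tissue were present. Of 18 acinar markers in the table, 12 of the 17 with an adjusted p were called lower by the authors' DESeq2 test and the median reconstructed log2 fold change was -1.98. Endocrine markers had 4 of 17 called lower and a median of -1.34, and pan-epithelial markers 1 of 13 and -0.85. Mesenchyme markers were positive in 12 of 13, with a median of 0.43 and 0 called by DESeq2 (4 higher at an unadjusted p under 0.05). Liver markers were positive in 10 of 10, with a median of 1.77 and 0 called by DESeq2 (4 higher at an unadjusted p under 0.05), and erythroid markers in 5 of 5, with 1 called higher. Over the members with a reconstructed value, implied sums of normalized counts were 175369 in the knockout and 665904 in controls for acinar markers. Endocrine markers summed to 2649 in the knockout and 15913 in controls, mesenchyme markers to 98101 in the knockout and 67433 in controls, and liver markers to 12367 in the knockout and 3355 in controls. Sums per library are not in the table, and the part of the liver and erythroid markers in the Rab values was not tested.

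Of 49 Rabs with an adjusted p, 2 passed the authors' test, and both were lower. Rab27a and Rab39b were called lower at an adjusted p under 0.05, and 0 members were called higher by DESeq2. A smaller share of all genes was called, 0.743%, with 0.479% lower and 0.264% higher. The Rab share rests on 2 genes, and its difference from that of all genes was not tested. At an unadjusted p under 0.05, 4 of the 51 Rabs with a p passed, namely Rab27a, Rab39b and Rab26 below 0 and Rab12 above it, against 5.39% of all genes. The sign was negative in 32 of 51 Rabs (62.7%) and in 6502 of 14386 genes (45.2%). Among genes whose reconstructed value had a standard error of at most 1, the median log2 fold change was -0.35 over 21 Rabs and -0.04 over 5710 genes. Taken relative to pan-epithelial genes, which adds 0.71 to every reconstructed value, 11 of 47 Rabs were negative, against 29 of 47 as deposited, so the family's lean below 0 depends on that choice.

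The median of the granule Rabs lay below that of the other Rabs. All 5 granule Rabs with a p were negative, against 27 of 46 other Rabs, and the median signed z, the normal score of the authors' p with the sign of the fold change, was -1.37 for granule Rabs, -0.16 for other Rabs and 0.10 for all genes. On the reconstructed log2 scale the median was -1.00 over 4 granule Rabs and -0.12 over 43 other Rabs, and when values were taken relative to pan-epithelial genes these became -0.29 and 0.58, so that the direction of the other Rabs turned. The difference between the groups was not tested, because the table holds no library values. Within the granule Rabs, Rab27a, Rab26 and Rab27b were at z of -5.21, -2.36 and -1.37, and Rab3a and Rab3c at -0.07 and -0.10. These z values do not show a split, because Rab3a and Rab3c were imprecise. On the reconstructed log2 scale their confidence intervals ran from -3.25 to 3.06 and from -5.04 to 4.62. Both intervals held the values of Rab26 (-1.79) and Rab27b (-1.81). The interval of Rab27b, from -4.36 to 0.73, also held 0. With Rab37 counted among the granule Rabs, the granule median on the reconstructed log2 scale was -0.21.

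**Figure D1:**
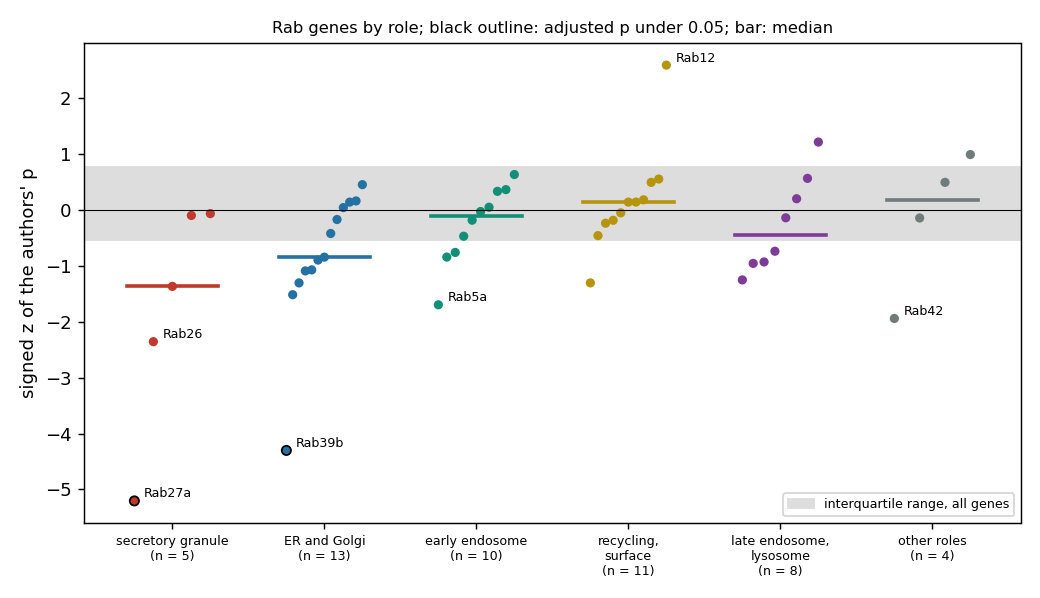
Signed z of the authors' p (y axis) for the 51 Rab genes with a p, by role (x axis); black outlines mark an adjusted p under 0.05, bars the median of each role, and the grey band the interquartile range of all genes. Rab27a at -5.21 and Rab39b at -4.30 stand below all other Rabs, and Rab12 at 2.59 stands above them.

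Rab27a, which docks granules and lysosome-related organelles at the plasma membrane and acts in insulin release from beta cells, was the Rab with the smallest p. It lies on chromosome 9 at 73044854 to 73097629 on the plus strand (GRCm38). The authors' deposited table lists a mean normalized count of 126 over all libraries, a log2 fold change of -0.17 ± 0.33 (posterior SD), an unadjusted p of 1.94e-07 and an adjusted p of 9.38e-05, rank 25 of 12108 genes by p. The deposited fold change is shrunken almost to 0, and its size could not be recovered. Solving from the posterior SD gave -26.2 ± 3.11 and solving from the p gave -9.93 ± 1.91 on the log2 scale. Either estimate would leave almost no Rab27a counts in the lower group. The estimates lie far apart, so no fold is given for Rab27a beyond its sign and p. Without library values, how many libraries carry its counts is unknown. An annotated pseudogene, Gm27186, overlaps 307 bases of the locus on the same strand. Whether it lies in an exon or alters the reads assigned to Rab27a was not tested.

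Rab39b, a Golgi and autophagy Rab best known from brain and from X-linked intellectual disability in humans, was the other called member. It lies on chromosome X at 75572046 to 75578231 on the minus strand (GRCm38). The authors' deposited table gives Rab39b a mean normalized count of 31.9, a log2 fold change of -0.05 ± 0.23 (posterior SD) and an adjusted p of 0.00510, rank 40 by p. As with Rab27a, its reconstructed values disagreed, at -40.1 ± 6.05 from the posterior SD and -16.9 ± 3.92 from the p. Either would leave almost no Rab39b counts in the lower group, and how many libraries carry its counts is unknown. An antisense gene, Gm15063, overlaps 1817 bases of Rab39b on the opposite strand. The libraries were made with a stranded kit, but whether counting used strand is not given in the sources used here.

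COMPASS complexes are known to act at CpG-rich promoters, so the start windows of both called Rabs are shown, each from 250 bases before to 50 bases after an annotated RefSeq start (GRCm38.p6), with CG dinucleotides in capitals.
Rab27a, first start, chr9:73044560-73044859, plus strand: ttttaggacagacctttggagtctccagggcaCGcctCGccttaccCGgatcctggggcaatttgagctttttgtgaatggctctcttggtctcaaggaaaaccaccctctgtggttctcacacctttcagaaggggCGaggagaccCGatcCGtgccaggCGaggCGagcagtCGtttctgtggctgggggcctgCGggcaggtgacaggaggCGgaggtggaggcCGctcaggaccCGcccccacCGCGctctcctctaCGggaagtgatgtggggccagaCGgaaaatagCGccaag
Rab27a, second start, chr9:73063898-73064197, plus strand: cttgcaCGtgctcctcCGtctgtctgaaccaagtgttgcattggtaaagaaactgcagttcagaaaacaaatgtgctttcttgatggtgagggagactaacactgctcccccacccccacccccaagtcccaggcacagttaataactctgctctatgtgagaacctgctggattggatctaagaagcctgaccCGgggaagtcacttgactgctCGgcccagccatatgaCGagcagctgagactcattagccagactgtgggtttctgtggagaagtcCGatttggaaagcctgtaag
Rab39b, chrX:75578182-75578481, minus strand: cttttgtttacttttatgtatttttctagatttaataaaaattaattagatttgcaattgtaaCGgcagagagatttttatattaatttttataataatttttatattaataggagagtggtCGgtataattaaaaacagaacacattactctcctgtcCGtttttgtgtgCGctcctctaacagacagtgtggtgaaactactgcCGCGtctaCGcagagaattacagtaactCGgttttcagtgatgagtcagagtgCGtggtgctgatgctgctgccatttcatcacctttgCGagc
The first Rab27a window held 18 CG dinucleotides at 61.3% GC, and the second, whose start lies 19338 bases downstream, held 6 at 51.3% GC. The Rab39b window held 10 at 35.7% GC. A window was counted as CpG-rich at a GC content of at least 50% and an observed over expected CpG ratio of at least 0.6. By that measure the first Rab27a window was CpG-rich, at a ratio of 0.643, and the Rab39b window was not, because of its low GC content. Most Rabs share such a promoter: of the 41 members matched in the table of start windows, 31 (75.6%) had a CpG-rich window, against 36.0% of all 27025 genes there. Those genes were not limited to the 14681 of the authors' deposited table, so the compared sets are unlike. Rab26 had no entry among the start windows.

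The same windows were searched for CATATG and CAGCTG, E-boxes that read alike on both strands and do not overlap each other. E-boxes are bound by basic helix-loop-helix factors such as Bhlha15 (Mist1), which is known to activate Rab26 and Rab3d in mouse gastric zymogenic cells. CATATG was found in 1 of 50 Rab windows, the second Rab27a window, where it starts 26 bases before the start site and is followed by CAGCTG at 15 bases before it. Over all start windows CATATG occurred in 3.91%. CAGCTG occurred in 12 of 50 Rab windows (24%) and in 16.3% of all windows. A match is a description of letters and not of a bound site. Bhlha15 itself was at 0.01 ± 0.42 (SE) on the reconstructed log2 scale. Rab3d was not among the 52 members found by symbol, so the granule set holds no value for it.

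Rab26, which acts in the maturation of secretory granules in exocrine glands, had a size that could be determined. Listed for Rab26 in the authors' deposited table were a mean normalized count of 165, an unadjusted p of 0.0184 and an adjusted p of 0.566. On the reconstructed log2 scale Rab26 was at -1.79 ± 0.75 (SE), with a 95% interval from -3.26 to -0.33. With 3 libraries in each group, this corresponds to an implied mean of 74.0 normalized counts in the knockout and 257 in controls. Rab26 thus missed the threshold over all genes while its own interval left out 0. Relative to pan-epithelial genes (their shift taken as fixed) it was at -1.09, with a 95% interval from -2.55 to 0.38 that held 0. Annotated neighbours overlap Rab26, among them 698 bases of Traf7 on the same strand and 497 bases of the antisense gene Rab26os.

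Rab27b, the close relative of Rab27a found on zymogen granules of acinar cells, had a value as large as that of Rab26 but less precise. The authors' deposited table gives a mean normalized count of 170, an unadjusted p of 0.171 and an adjusted p of 1.00. On the reconstructed log2 scale it was at -1.81 ± 1.30 (SE), with a 95% interval from -4.36 to 0.73 and implied means of 75.1 normalized counts in the knockout and 264 in controls. A several-fold decrease and no change were both inside that interval. An annotated pseudogene, AC163398.1, overlaps 919 bases of the Rab27b locus on the opposite strand.

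The Rab3 types, which act in calcium-triggered release from synaptic vesicles and hormone granules, were poorly measured. Rab3a had a mean normalized count of 40.2 in the authors' deposited table and was at -0.09 ± 1.61 (SE) on the reconstructed log2 scale, with implied means of 39.0 in the knockout and 41.5 in controls. Rab3c had a mean normalized count of 13.5 there and a log2 value of -0.21 ± 2.46 (SE), with a 95% interval from -5.04 to 4.62. Rab3b had a mean normalized count of 30.8 but no p in the same table, and no size is given for it. Changes of several-fold either way in Rab3a and Rab3c lay inside their intervals.

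Markers of the cells that carry these granules were negative like Rab27a, Rab26 and Rab27b: acinar and endocrine markers had medians of -1.98 and -1.34 on the reconstructed log2 scale. Their part in the Rab values was not tested. Rab27 types are also used by cytotoxic lymphocytes and platelets. Leukocyte and platelet markers were positive in 11 of 11, with a median of 1.34 (0.37 over the 3 with a standard error of at most 1). Of these, 0 of 9 were called by DESeq2 (0 at an unadjusted p under 0.05), near the shares of all genes, 0.743% and 5.39%. The list holds no gene particular to cytotoxic lymphocytes, and the part of these cells in the Rab values was not tested. The platelet markers Gp9 and Ppbp were not analysed here.

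**Figure D2:**
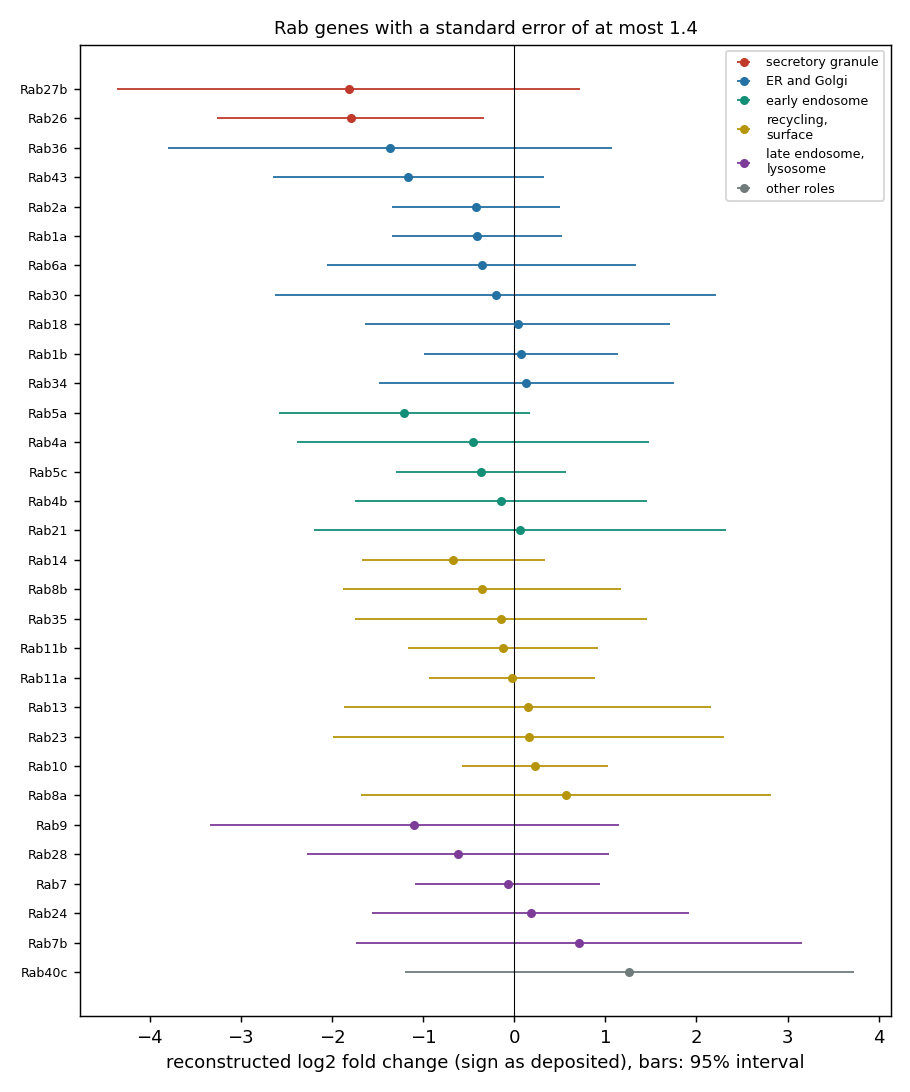
Reconstructed log2 fold change (x axis, sign as deposited) with 95% intervals for 31 Rab genes, coloured by role. Plotted are Rabs whose reconstruction met the tolerance of 0.1 in z and whose standard error was at most 1.4. Rab12 (2.32 ± 0.86, solved from the posterior SD) missed that tolerance and is not plotted. Of the plotted intervals 1 leaves out 0, that of Rab26 from -3.26 to -0.33, and Rab11a lies at -0.02.

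Rabs of the ER and Golgi had 13 members, of which Rab39b was called, where 0.743% of all genes were called. The sign was negative in 9 of 13 and the median z was -0.85. The Rabs of ER-to-Golgi transport were among the best measured. Rab1a, required for that step, was at -0.40 ± 0.48 (SE) on the reconstructed log2 scale, with implied means of 568 normalized counts in the knockout and 752 in controls. Rab1b, its near copy, was at 0.08 ± 0.54, and Rab2a, which also acts between ER and Golgi, was at -0.42 ± 0.47. Rab43, a Golgi Rab, had the smallest p after Rab39b, 0.129 in the authors' deposited table, and a reconstructed value of -1.16 ± 0.76, or implied means of 86.1 in the knockout and 192 in controls. Rab36 was at -1.36 ± 1.24, Rab6b, a neuron-enriched relative of the Golgi Rab Rab6a, at -1.78 ± 1.63, and Rab6a at -0.36 ± 0.86. Rab33a, with a mean normalized count of 16.9 in the authors' deposited table, was at -5.57 ± 4.08, too imprecise to read. Rab18 (0.04 ± 0.85), Rab30 (-0.20 ± 1.24) and Rab34 (0.14 ± 0.83) lay near 0, and Rab2b (1.17 ± 2.65) had few counts.

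Early endosome Rabs numbered 10, with 6 negative, a median z of -0.11 and 0 called by DESeq2 (0 at an unadjusted p under 0.05). These counts are near the shares of all genes, 0.743% and 5.39%, and are not a result about this role. Rab5a, which drives fusion of early endosomes, was at -1.20 ± 0.70 on the reconstructed log2 scale (unadjusted p = 0.0894 in the authors' deposited table), with implied means of 122 normalized counts in the knockout and 281 in controls. Rab5c, its more deeply counted relative, was at -0.36 ± 0.48, with implied means of 434 in the knockout and 558 in controls, and Rab5b was at 1.50 ± 2.37. The 95% intervals of all 3 Rab5 genes held 0 and overlapped, and differences between them were not tested. Of the recycling Rabs of the same compartment, Rab4a was at -0.46 ± 0.98 and Rab4b at -0.15 ± 0.82. Rab31 was at -1.19 ± 1.41, and Rab21, Rab22a, Rab20 and Rab17 lay between -0.05 and 1.10 with standard errors from 1.15 to 3.53.

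Rabs of recycling endosomes and the cell surface had the highest median of the mean counts among the roles, 186, and numbered 11 members, 5 of them negative, with a median z of 0.14. Of these, 0 were called by DESeq2, and Rab12 alone passed an unadjusted p under 0.05, where the shares of all genes were 0.743% and 5.39%. Rab11a, the main Rab of recycling endosomes, had the highest mean count of the family, 806 in the authors' deposited table, and lay at -0.02 ± 0.46 (SE) on the reconstructed log2 scale. Its implied means were 800 normalized counts in the knockout and 812 in controls. Among 21 Rabs with a reconstruction within the tolerance and a standard error of at most 1, Rab11a alone excluded a change of 2-fold or more. Its 95% interval ran from -0.93 to 0.89. Relative to pan-epithelial genes the interval of Rab11a ran from -0.22 to 1.59 and no longer excluded it. Rab10, which acts in polarized and insulin-regulated surface transport, was at 0.23 ± 0.41, with implied means of 583 in the knockout and 498 in controls. Rab11b was at -0.12 ± 0.53 and Rab14, of the trans-Golgi and endosomes, at -0.67 ± 0.51. Rab8a and Rab8b, which act at the apical surface and cilium, were at 0.57 ± 1.15 and -0.35 ± 0.78. Rab35, Rab13 and Rab23 lay between -0.15 and 0.16, and Rab37 had a mean count of only 7.69 in the authors' deposited table.

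Rab12, which sends recycling receptors to lysosomes, stood apart from this group. The authors' deposited table gives it a mean normalized count of 187, a log2 fold change of 0.19 ± 0.35 (posterior SD), an unadjusted p of 0.00968 and an adjusted p of 0.410. Its reconstruction missed the tolerance of 0.1 in z by little, at 0.106. Solved from the posterior SD its log2 fold change was 2.32 ± 0.86, and solved from the p it was 2.12 ± 0.82. It was not called.

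Late endosome and lysosome Rabs numbered 8, with 5 negative, a median z of -0.44 and 0 called by DESeq2 (0 at an unadjusted p under 0.05). These counts are near the shares of all genes, 0.743% and 5.39%, and are not a result about this role. Rab7, required for transport to lysosomes, was at -0.07 ± 0.52 (SE) on the reconstructed log2 scale, with implied means of 250 normalized counts in the knockout and 263 in controls. Rab9, of transport from late endosomes to the trans-Golgi, was at -1.09 ± 1.14. Rab32 and Rab38, a pair known from melanosomes and other lysosome-related organelles, were at 3.29 ± 2.56 and -2.94 ± 3.16, with fewer than 25 mean normalized counts each in the authors' deposited table. Rab28 was at -0.62 ± 0.84, Rab24 at 0.18 ± 0.88 and Rab7b at 0.71 ± 1.25, and Rab9b, with a mean count of 9.02, was at -5.26 ± 4.05. Among the 4 remaining Rabs, Rab40c, a substrate adaptor of ubiquitin ligases, was at 1.26 ± 1.26, its relative Rab40b at -0.24 ± 1.81 and Rab44, known from mast cells, at 1.37 ± 2.86. Rab42 had an unadjusted p of 0.0520 at a mean count of 13.2 in the authors' deposited table, with no determined size.

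**Figure D3:**
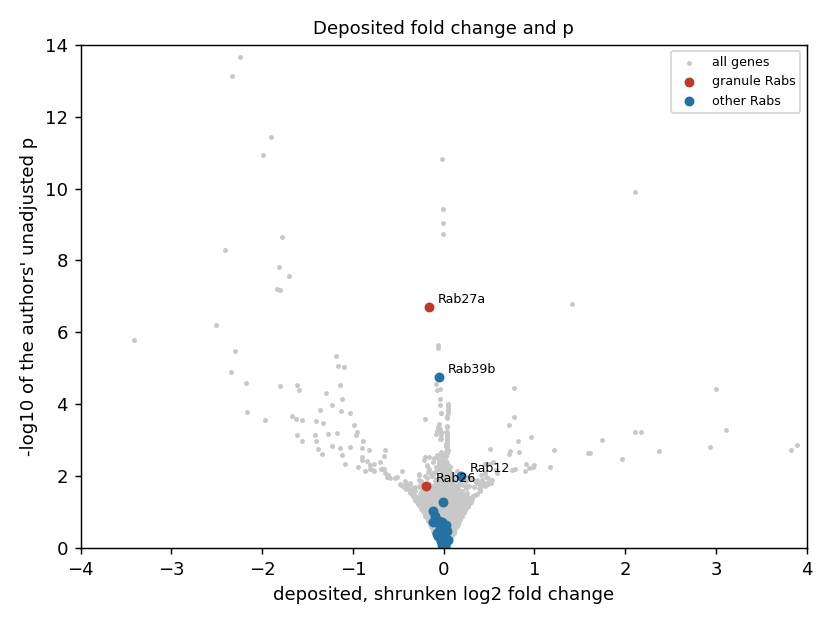
Deposited shrunken log2 fold change (x axis) against -log10 of the unadjusted p (y axis) for all genes with a p, with granule and other Rabs in colour; 28 genes lie outside the axes. Rab27a at -0.17 and Rab39b at -0.05 sit in a narrow column of small p near 0, away from the arms of the plot.

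By position, 4 Rabs are X-linked, Rab39b, Rab33a, Rab9b and Rab9, and all 4 were negative, at z of -4.30, -1.31, -1.25 and -0.96. Of all X-linked genes with a p, 223 of 480 (46.5%) were negative, and of the 47 autosomal Rabs with a p, 28 (59.6%) were. None of the 4 had a CpG-rich start window. The sex of the embryos is not in the labels. The Y-linked gene Ddx3y was negative at an unadjusted DESeq2 p of 0.0134 (adjusted p = 0.490). Kdm5d and Uty, also Y-linked, were negative at unadjusted p of 0.162 and 0.127, with Kdm5d at -2.72 ± 1.87 (SE) on the reconstructed log2 scale. Xist, with a mean normalized count of 2831, was listed in the authors' deposited table without a p. The part of embryo sex in the X-linked values was not tested. Left without its X-linked members, the set of other Rabs had a median reconstructed log2 fold change of -0.06.

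Genes that act with Rabs were set against all genes. Of 140 listed regulators and effectors, 131 were in the table. DESeq2 called 0 of the 120 with an adjusted p, which is near the 0.743% called among all genes and is not a result about this list. At an unadjusted p under 0.05, 6 of 131 were lower and 5 higher, where 5.39% of all genes passed, and the list had a median reconstructed log2 fold change of -0.09 against 0.08 for all genes. Effectors of granule Rabs had 12 of 18 members negative and a median z of -0.60. Sytl5, a synaptotagmin-like protein that binds Rab27, was at -2.24 ± 0.91 on the reconstructed log2 scale. Its implied means were 41.9 normalized counts in the knockout and 198 in controls. The authors' deposited table gives Sytl5 an unadjusted p of 0.0175 and an adjusted p of 0.558. Sytl5 is X-linked, and the part of embryo sex in its value was not tested. Sytl4 (granuphilin), which docks insulin granules through Rab27a, was listed in the authors' deposited table as negative at an unadjusted p of 0.0490 (adjusted p = 0.771), with no determined size.

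Golgi effectors had 7 of 10 members negative and a median z of -0.52. Golga1, a tethering protein of the trans-Golgi, had in the authors' deposited table the smallest p of all these lists, 0.00179 (adjusted p = 0.148), and lay at -1.91 ± 0.62 (SE) on the reconstructed log2 scale, with implied means of 78.7 normalized counts in the knockout and 295 in controls. Golga4, another golgin, was at -0.64 ± 0.32, with implied means of 978 in the knockout and 1520 in controls. GAPs were negative in 24 of 34, with a median z of -0.27. Tbc1d17 at 2.08 ± 0.78 and Tbc1d13 at -1.92 ± 0.87, which inactivates Rab35, had the smallest p among GAPs and pointed opposite ways. GEFs were negative in 15 of 34, with a median z of 0.11. Dennd5b was at 1.28 ± 0.76. Endosome effectors had 14 of 20 members positive and a median z of 0.34, although the 9 with a standard error of at most 1 had a median log2 fold change of -0.34. They were led by Micall2, without a determined size, and Fyco1, a Rab7 adaptor, at 1.23 ± 0.59. The exocyst, the tether that Rab8 and Rab11 engage at the plasma membrane, had 6 of 9 negative, with Exoc6b at -0.55 ± 0.44 and Exoc6 without a determined size. Carriers and prenylation enzymes had 3 of 6 negative, with Rabac1 at 0.89 ± 0.85. The median reconstructed log2 fold changes of granule effectors, Golgi effectors, GAPs and the exocyst were -0.42, -0.31, -0.26 and -0.22. All turn positive relative to pan-epithelial genes, which follows from the constant of 0.71 added to every gene. The median of all genes, 0.08 before scaling, rises by the same constant, so these medians stay below it.

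**Figure D4:**
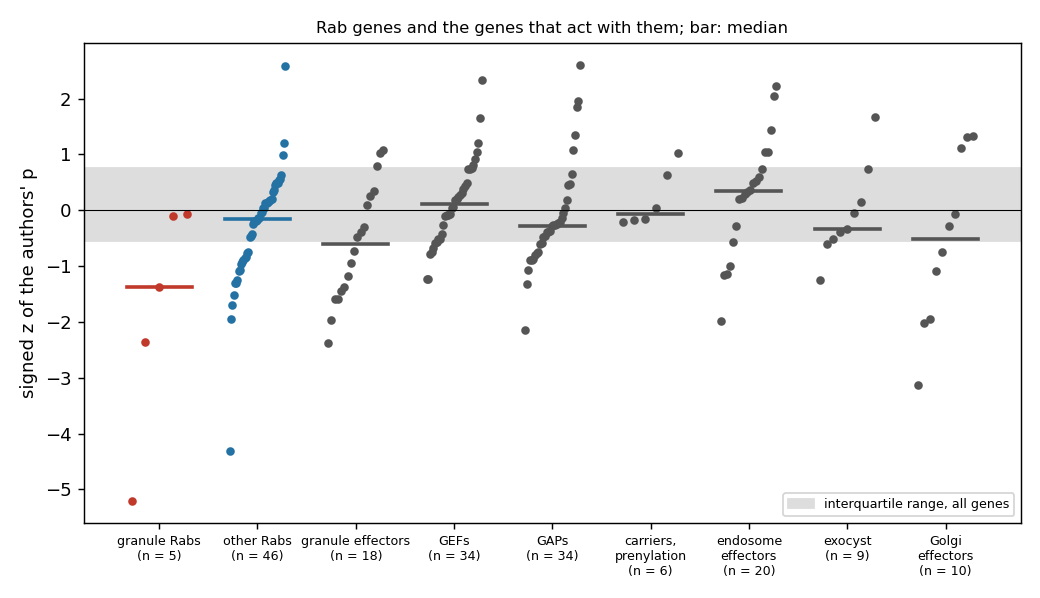
Signed z of the authors' p (y axis) for granule Rabs, other Rabs and the 7 lists of Rab regulators and effectors (x axis); bars are medians and the grey band is the interquartile range of all genes. Granule Rabs have the lowest median, at -1.37, and granule effectors lie next at -0.60.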

How the data were processed

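RNA was sequenced from 3 knockout and 3 control samples, grouped by title. Trimmomatic, Salmon, DESeq2 and the build GRCm38 (mm10) are named in the submitters' processing notes. Tool versions, gene models, filtering and model terms are not given in the sources. The authors deposited 1 table of gene results. Its deposited signal is a mean normalized count across libraries. Beside it stand the authors' log2 fold change with its error, and their p-value, both raw and adjusted. The kind of error is not stated, and it is read throughout as the posterior SD of a shrunken fold change. The table lists 14681 genes, 14386 with a p and 12108 with an adjusted p. The depth of each library is unknown.

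No gene was tested again: the planned count test needs per-library values, so calls are those of the authors' DESeq2 test at an adjusted p under 0.05. Unshrunken values were reconstructed from the deposited fold change and posterior SD, assuming a Cauchy prior and a quadratic likelihood, with a prior scale of 0.310, chosen so that z matched the deposited p most closely. Values are given for genes whose z came within 0.1 of that of the deposited p, 90.8% of genes with a p and 47 Rabs. Called genes were left out more often: 38 of the 90 had no reconstructed size, Rab27a and Rab39b among them. Without the tolerance the granule median was -1.79 over 5 members. Implied group means follow from the mean count, the reconstructed fold change and 3 libraries a group. The arithmetic was tested on simulated data. Computations used Python 3.11.15, numpy 2.4.6, scipy 1.17.1 and pandas 2.3.3. Overlaps came from GENCODE M21 and start windows, genes and chromosomes from RefSeq (GRCm38.p6).

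The members, roles and lists were chosen with earlier results of these data known. Named are each called Rab, each granule Rab, the 3 other Rabs with the smallest p in each role, further Rabs by role, and the 2 genes with the smallest p in each regulator or effector list. Some genes that this rule takes are not reported here. Alternatives tried were other thresholds, a count minimum, other scalings, tolerances and prior scales, and Rab37 as a granule Rab.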

Additional observations from a re-analysis of the deposited data

How the results depend on the processing

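Calls: 2 Rabs were lower at an adjusted p under 0.1 and under 0.01 as well, and 3 at an unadjusted p under 0.05, where 1 was higher. When only genes counted at a mean of 50 or more were kept, 1 Rab was called lower, since Rab39b falls under that minimum. Relative to pan-epithelial genes (weighted mean -0.71 over 13 genes), the median of other Rabs became 0.58, which follows from the constant added to every gene. That scaling left 11 of 47 reconstructed Rabs below 0, against 29 as deposited. Under every other alternative run for the medians the sign was kept, and the granule median ran from -1.80 to -0.05, with -0.05 on the deposited shrunken scale. Of 64 recomputed values of 16 named Rabs, 60 stayed within 1 SE. Solving from the p and leaving out X-linked Rabs were chosen after seeing the data. No paired analysis was possible because the table holds no per-library values, and for the same reason leaving out replicates and edgeR were not run. Precision limits most members: the median standard error was 1.14 over 47 Rabs, and counting error cannot be told apart from the spread between samples.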

Other observations

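Rab27a and Rab39b belong to a wider set of calls with a small deposited fold change. Of 90 called genes, 24 had a deposited log2 fold change within 0.25 of 0, 17 of them lower and 7 higher. Of these 24, 0 had a reconstructed size within the tolerance. A deposited value this small is the rule in the shrunken table, where 14429 of all 14681 genes had one. Their median mean normalized count was 32.8, against 722 for the other 66 called genes. Rab27a had the highest mean count of the 24.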
